A study of Columba livia with 16 samples.

Results

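H3K27ac, an acetylation mark of active enhancers and promoters, was mapped by ChIP-seq in embryonic limb buds at HH25 (Hamburger-Hamilton stage 25) of the racing homer, a pigeon breed with scaled feet, and the Indian fantail, a breed with feathered feet. The regions described here have a peak in the racing homer forelimb, the racing homer hindlimb and the Indian fantail forelimb, and none in the Indian fantail hindlimb. They were chosen by the presence and absence of peaks in the 4 deposited lists: peaks that overlapped by at least 1 bp were joined across lists, which gave 26456 merged regions, and 270 of these had this pattern. The series holds 16 libraries, 2 of ChIP and 2 of input per breed and limb, but a single list per breed and limb was deposited. No value therefore has an error between replicates, no difference was tested, and the sequencing depth behind a peak is unknown. The labels do not say how many embryos went into a library. Genome build is not given in the sources used here, and positions are those of the lists' scaffolds, counted from 1.

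Enhancers that carry H3K27ac in a limb bud are read by transcription factors, some of which are shared by wing and leg and some of which set limb type. *Tbx5* is expressed in the bird forelimb and *Pitx1* in the hindlimb, and both encode such factors. In the study, the 2 breeds were compared to ask whether enhancer activity in feathered legs differs from that in scaled legs. The regions described here had a peak in both limb types of the scaled breed and in the wing of the feathered breed, and lacked one in the feathered leg.

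The Indian fantail hindlimb list is the longest of the 4, with 22407 peaks over 48.4 Mb, against 16474 peaks over 31.5 Mb in the racing homer forelimb, 18821 over 38.5 Mb in the racing homer hindlimb and 15357 over 33.1 Mb in the Indian fantail forelimb. Absence from it was the rarest of the 4 patterns in which a region lacked a peak in a single list. The 270 regions were 2.70% of the 9988 regions with a peak in the other three lists (95% Wilson interval 2.40–3.04%, for counting error only). By the same count, 666 regions were missing only from the racing homer hindlimb (6.41%, 5.96–6.90%), 1229 only from the racing homer forelimb (11.2%, 10.6–11.8%) and 1503 only from the Indian fantail forelimb (13.4%, 12.8–14.04%). The order of these counts follows the number of peaks in the missing list, from the longest list to the shortest. Among all 17415 regions with a racing homer hindlimb peak, 14.4% had no Indian fantail hindlimb peak, and among all 11123 regions with peaks in both forelimb lists, 6.64% had none. These shares describe the selection and support nothing about its members.

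Like the regions missing only from another list, most of the 270 regions had low scores where they were present. Scores of different lists are not on a shared scale, so each was given as a percentile within its own list. This was the percent of peaks with a lower score, plus 50% of the percent with the same score. The median percentile of the highest-scoring peak was 40.3 in the racing homer forelimb (95% interval of the median 35.1–45.4), 34.5 in the Indian fantail forelimb (30.9–39.4) and 28.9 in the racing homer hindlimb (26.1–34.8). In the 9718 regions with peaks in all 4 lists, the same medians were 67.1, 65.2 and 71.7. The highest-scoring peaks reached their list's median in all 3 lists in 24 of the 270 regions (8.89%), against 53.7% of the regions in all 4 lists. The shares were 4.88%, 7.21% and 6.59% of the regions missing only from the racing homer forelimb, its hindlimb and the Indian fantail forelimb. The median was reached in none of the 3 lists in 122 of the 270 (45.2%), against 40.9%, 41.1% and 40.8% of the regions missing only from another list, in the same order. In 109 regions (40.4%) the weakest of the 3 scores was below 60, where the lowest score in any list is 50, and this held for 10.8% of the regions in all 4 lists and for 36.0%, 39.3% and 33.5% of those missing only from another list, in the same order. When peaks had to overlap by at least 50% of both to be joined, the medians over 615 regions were 52.9 in the racing homer forelimb, 53.4 in its hindlimb and 47.9 in the Indian fantail forelimb. These 615 regions overlapped 230 of the 270, so most of them were other regions.

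**Figure D1:**
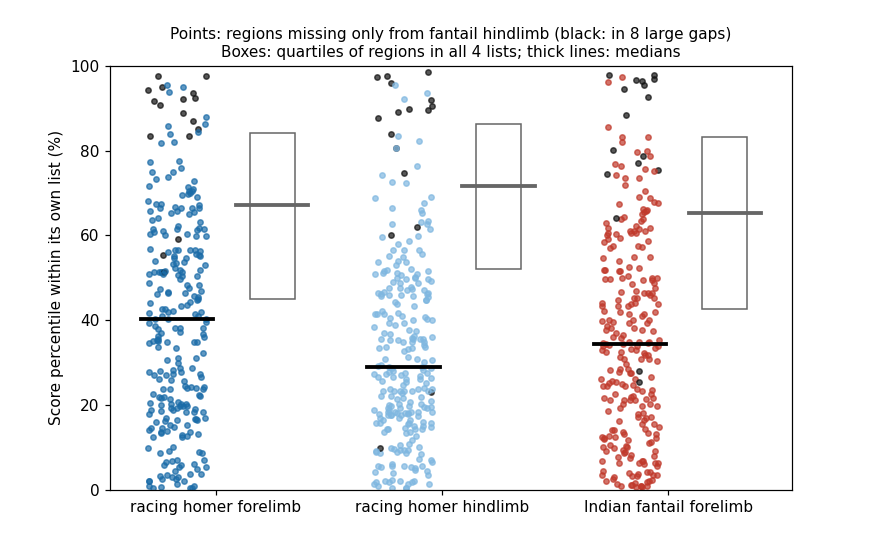
Score percentile of the highest-scoring peak (y axis, %) in each of the 3 lists with a peak, for the 270 regions missing only from the Indian fantail hindlimb (points, black for the 17 in 8 large gaps) beside the quartiles of the 9718 regions in all 4 lists (boxes). Thick lines are medians: 40.3, 28.9 and 34.5 for the 270 regions against 67.1, 71.7 and 65.2.

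The order of the racing homer limbs depended on how peaks were joined and on list size, which also changed which regions had the pattern. Among the 270 regions, the racing homer hindlimb peak had a lower percentile than both forelimb peaks in 109 (40.4%) and a higher one than both in 73 (27.04%). Among the regions in all 4 lists the balance lay the other way, with 24.6% lower and 49.2% higher. The mirrored regions, missing only from the racing homer hindlimb, had their Indian fantail hindlimb peak below both forelimbs in 35.0% and above both in 37.8%. In the racing homer the hindlimb minus forelimb difference in percentile had a median of -3.12 (quartiles -23.3 and 10.8) over the 270 regions and of 2.48 (-5.01 and 13.9) over the regions in all 4 lists. With 50% of both peaks required to overlap, the direction turned, with a median difference of 1.57 and 28.5% of 615 regions below both forelimbs against 46.0% above. With lists of equal size it was 0.47, with 28.8% of 541 regions below and 37.2% above. The 615 regions overlapped 230 of the 270 and the 541 regions 168, so most of each set was new. Under the 50% rule, a region could also count as missing while a smaller overlap with an Indian fantail hindlimb peak remained. Equal size meant 15357 peaks per list, so a region could count as missing although the full Indian fantail hindlimb list has a peak in it. That cut also took more peaks from the racing homer hindlimb list than from its forelimb list, and none from the Indian fantail forelimb list. Whether the direction turned in the 270 regions themselves was not tested. These counts are descriptions, since the regions were chosen for lacking a hindlimb peak in the other breed.

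With peaks joined at 1 bp, forelimb-weighted regions outnumbered hindlimb-weighted ones. In 16 regions (5.93%) both forelimb peaks were at or above their list's median while the racing homer hindlimb peak was below percentile 25, and the reverse, a hindlimb peak at or above the median with both forelimbs below 25, was found in 4 (1.48%). The shares were 1.33% and 1.04% among the regions in all 4 lists. These counts were not made for the regions missing only from another list, so whether the split is particular to the 270 was not tested. The 3 lowest hindlimb minus forelimb differences lay on scaffolds 538, 618 and 146. On scaffold 538, the region from 827220 to 833281 had a racing homer forelimb score of 371 (percentile 83.9), an Indian fantail forelimb score of 85.8 (33.8) and a racing homer hindlimb score of 54.1 (5.29), but no base of it lay under peaks of all 3 lists. The region of scaffold 618 from 1169411 to 1174840 had scores of 417 (85.9) and 339 (83.3) in the racing homer and Indian fantail forelimbs and of 56.7 (8.38) in the racing homer hindlimb. On scaffold 146, from 2653137 to 2656367, the forelimb scores were 247 (74.9) and 198 (69.2) in the same order, and the hindlimb score was 50.2 (0.274), close to the lowest in its list. In the last 2 of these regions, both forelimb peaks thus stood in the upper part of their lists and the scaled hindlimb had a peak close to the lower limit of its list. Scaffold 618 held 3 of the 270 regions among its 19 regions with a peak in the other three lists (15.8%), too few to set against the 2.70% over all scaffolds. In each of these 3 members both forelimb percentiles were above that of the racing homer hindlimb.

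The 3 highest differences went the other way. The region of scaffold 111 from 4176680 to 4178529 had a racing homer hindlimb score of 229 (percentile 72.4) and forelimb scores of 50.9 (1.35) for the racing homer and 59.8 (12.4) for the Indian fantail. It began 185 bp after an Indian fantail hindlimb peak with a score of 93.4. Scores on scaffold 29, from 506719 to 508941, were 157 (59.7) in the racing homer hindlimb, 51.5 (2.09) in its forelimb and 89.8 (36.5) in the Indian fantail forelimb. The region of scaffold 81 from 1100584 to 1103425 had 159 (59.9) in the racing homer hindlimb, 54.0 (5.85) in its forelimb and 57.0 (9.17) in the Indian fantail forelimb, with no base under all 3 lists. At all 3 places the scaled hindlimb carried the strongest of the 3 peaks by rank, and the racing homer forelimb peak was close to the lower limit of its list.

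**Figure D2:**
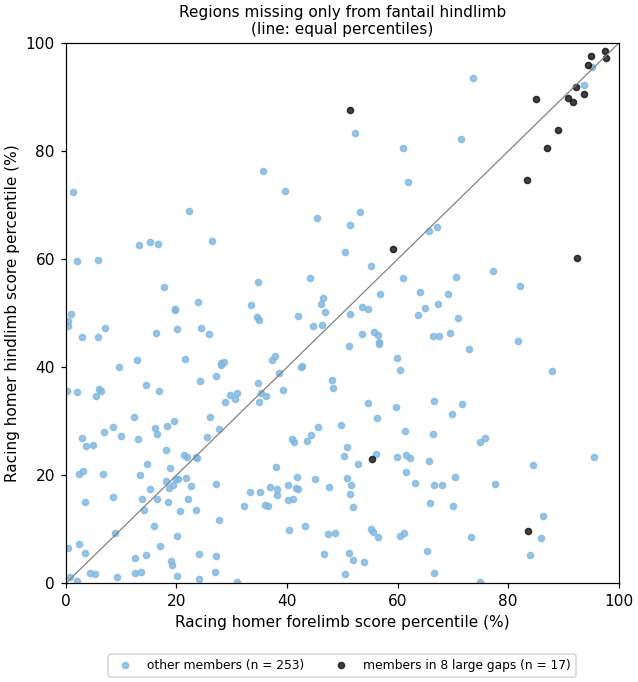
Racing homer hindlimb (y axis) against racing homer forelimb (x axis) score percentile, in %, for the 270 regions, with the 17 in 8 large gaps in black and the other 253 in blue. The grey line marks equal percentiles, and 161 of the 270 points lie below it.

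Their median width was 2154 bp (quartiles 1695 and 2784 bp), against 2771 bp for the regions in all 4 lists and 1929, 2230 and 1899 bp for those missing only from the racing homer forelimb, its hindlimb and the Indian fantail forelimb, and a median of 1136 bp lay under peaks of all 3 lists, against 1566 bp in the regions of all 4 lists. At least 5 kb were reached by 21 of the 270 (7.78%), against 18.4% of the regions in all 4 lists and 1.46%, 2.40% and 0.998% of those missing only from another list, in the same order. A single peak per list made up the region in 246 of 270 (91.1%). By the same 3 lists, it was 80.4% in the regions of all 4 lists. For those missing only from another list it was 92.0%, 90.2% and 92.9%, in the same order. In 9 regions (3.33%) no base was shared by all 3 lists, so that these were joined only through a peak that bridged the others. This share was 0.617% in the regions of all 4 lists. It was 1.06%, 2.25% and 0.998% in those missing only from another list, in the same order. The forelimb peaks of the breeds shared a median of 71.7% of the bases that either covered, the racing homer limbs 68.2% and the racing homer hindlimb with the Indian fantail forelimb 69.0%. In the regions of all 4 lists, the same medians were between 80.7% and 82.0%.

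The regions were spread over many scaffolds. They lay on 179 of the 837 scaffolds with a merged region, with a single one on 124 of these scaffolds and at most 7 on any. In 22 of the 270 (8.15%) a neighbouring merged region was another member. Those missing only from the racing homer forelimb had a neighbour of their own kind in 10.3%. It was 6.01% for its hindlimb and 12.7% for the Indian fantail forelimb. These shares have unlike bases. The 270 were 1.02% of all merged regions, against 4.65%, 2.52% and 5.68% for those missing only from another list, in the same order. Set against how common each pattern was, members thus adjoined each other more often than the others did. Of the 10 runs of neighbouring members, 6 had all spaces at most 1 kb. In 136 regions (50.4%) a neighbouring merged region had peaks in all 4 lists, against 62.5% of the regions that were themselves in all 4 lists. It was 55.9%, 59.3% and 58.4% for those missing only from the racing homer forelimb, its hindlimb and the Indian fantail forelimb. In 58 regions (21.5%) a neighbour was found in the Indian fantail hindlimb alone, against 27.3% of the regions in all 4 lists. For those missing only from another list it was 32.0%, 26.9% and 29.0%, in the same order. On scaffolds with at most 5 merged regions lay 6 of the 270 regions (2.22%), against 2.08% of the regions in all 4 lists. Scaffold 70, which carries *Tbx5* and *Tbx3*, held none of the 270. The number of its regions with a peak in the other three lists is not given here, so this absence cannot be set against the 2.70% over all scaffolds. The scaffold of *Pitx1*, number 79, also carries a DNA interval that is deleted in the Indian fantail. A region inside it could not be chosen, since the choice asks for an Indian fantail forelimb peak. Scaffold 79 held 3 of the 270 among its 147 regions with a peak in the other three lists (2.04%), close to the 2.70% over all scaffolds. The nearest of the 3, from 7296599 to 7298928, lay 297 kb from the *Pitx1* window and scored 141 (percentile 56.3) in the racing homer forelimb, 82.9 (30.7) in its hindlimb and 146 (58.6) in the Indian fantail forelimb. A window of 237 kb that starts at the end of the deletion and was taken to reach *Pitx1* held 3 regions with a peak in the other three lists, one of 120 kb taken for *Tbx5* held 0 and one of 40 kb taken for *Tbx3* held 7. None of these 10 lacked the Indian fantail hindlimb peak, and such counts are too few to set against 2.70%.

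The distance from a region to the nearest Indian fantail hindlimb peak had a median of 9248 bp (quartiles 2701 and 22722 bp) over the 265 regions whose scaffold has such a peak. A peak of that list lay within 1 kb of 31 regions (11.5%) and within 5 kb of 98 (36.3%), and beyond 50 kb of 33. Thus 239 of the 270 had none within 1 kb and 172 none within 5 kb. Among the 1229 regions missing only from the racing homer forelimb, 1052 and 819 had no peak of their missing list within these distances. For its hindlimb it was 562 and 412 of 666, and for the Indian fantail forelimb 1278 and 971 of 1503. Such closeness was not particular to the 270. The nearest approach was on scaffold 218, where an Indian fantail hindlimb peak ended 7 bp before the region from 668699 to 671533, followed by scaffold 34, 28 bp before the region from 7275486 to 7294454, and scaffold 229, 151 bp before the region from 1506066 to 1511116. The region on scaffold 229 had scores of 214 (percentile 70.9) in the racing homer forelimb, 121 (49.0) in its hindlimb and 65.9 (18.5) in the Indian fantail forelimb, and the adjacent Indian fantail hindlimb peak had 51.5. These 3 regions are members because no base of that peak touched them.

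At the other end, the 3 most isolated regions lay on scaffolds 13, 427 and 40. The region of scaffold 13 from 1144414 to 1146784 was 1079424 bp from the nearest Indian fantail hindlimb peak, with scores of 107 (percentile 44.4), 77.7 (27.4) and 156 (61.1) in the racing homer forelimb, its hindlimb and the Indian fantail forelimb. On scaffold 427, from 171248 to 174609, the distance was 739158 bp and the scores in the same order were 135 (54.6), 125 (50.8) and 250 (76.3). The third, on scaffold 40 from 2161730 to 2163503, was 522344 bp away, with scores of 115 (47.7), 65.8 (17.9) and 86.7 (34.4). The region on scaffold 427 was at or above the median of all 3 lists, and the other two were not.

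**Figure D3:**
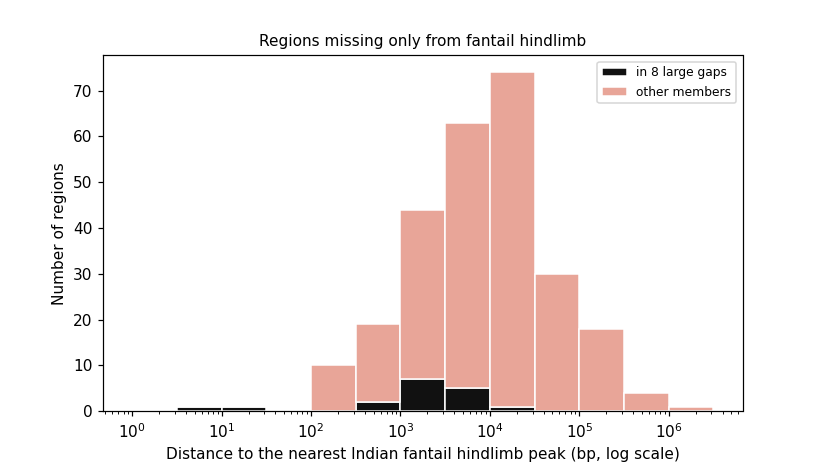
Number of regions (y axis) by distance to the nearest Indian fantail hindlimb peak (x axis, bp, log scale) for the 265 regions on a scaffold with such a peak, with the members in 8 large gaps in black. The median was 9248 bp, and 31 regions lay within 1 kb.

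Another 5 regions lay on scaffolds with no Indian fantail hindlimb peak, numbered 562, 959, 1547, 1865 and 4012. Each of these scaffolds held a single merged region, the member itself, so this absence follows from the choice of members. The strongest of them, on scaffold 4012 from 1025 to 2733, scored 219 (percentile 71.5) in the racing homer forelimb, 345 (82.3) in its hindlimb and 285 (79.8) in the Indian fantail forelimb, and 1579 of its 1709 bp lay under all 3 lists. Smallest percentiles in the other four were between 0.619 and 35.6.

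Close to the limit of the selection, the lowest score behind a member was 50.2, in the racing homer hindlimb on scaffold 86 from 1117944 to 1119178, where the forelimb scores were 82.0 (racing homer) and 82.6 (Indian fantail). On the other side, 104 regions in all 4 lists owed their place to an Indian fantail hindlimb peak with a score below 60. The weakest of these peaks had a score of 50.03, on scaffold 112 from 380678 to 382800, with scores of 84.6, 97.0 and 107 in the racing homer forelimb, its hindlimb and the Indian fantail forelimb. By length, the regions of all 4 lists with the fewest bases under an Indian fantail hindlimb peak had 303 bp of 322 on scaffold 27 (from 1739480 to 1739801), 312 bp of 322 on scaffold 142 (from 4215764 to 4216085) and 318 bp of 320 on scaffold 1412 (from 89872 to 90191). These were short regions that lay almost wholly under that peak. Its scores were 100, 124 and 87.9 in the same order, so by score they were not close to the limit. In 80 regions of all 4 lists no base lay under all 4, so that some owed the Indian fantail hindlimb peak to a chain of overlaps between peaks.

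The share of regions that lacked an Indian fantail hindlimb peak was lower where the peaks of the other three lists ranked higher, up to the 2 highest classes, whose intervals overlap. With the smallest of the 3 percentiles below 10, 10.5% of 911 regions lacked the peak (8.71–12.7%). From 10 to 25 it was 6.18% of 1392, from 25 to 50 2.62% of 2444, from 50 to 75 0.505% of 2575 and from 75 to 90 0.251% of 1593 (0.0977–0.644%). At 90 and above, 7 of 1073 regions lacked it (0.652%, 0.316–1.34%). In this top class, the count of regions missing only from another list was 2 of 1114 for the racing homer hindlimb (0.180%, 0.0492–0.652%), 0 of 1127 for the racing homer forelimb, which allows up to 0.340%, and 0 of 1199 for the Indian fantail forelimb, which allows up to 0.319%. The Indian fantail hindlimb, rarest among the missing lists over all regions, thus had the highest count in the top class, although its interval overlaps those of the other lists. The 7 regions lay in 6 places, and neighbouring regions are not independent.

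**Figure D4:**
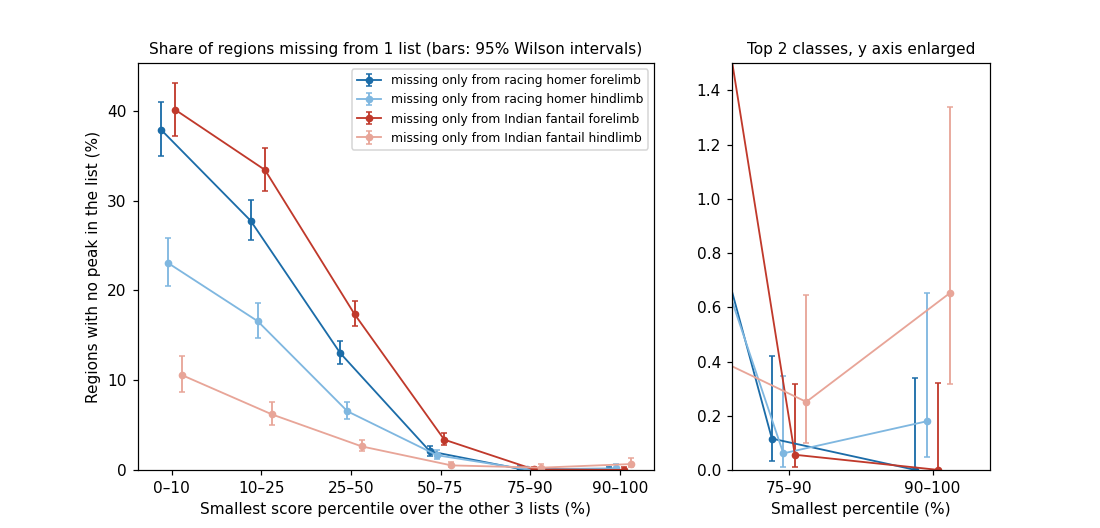
Share of regions with no peak in the named list (y axis, %) by the smallest score percentile over the other 3 lists (x axis, %), with 95% Wilson intervals and the 2 top classes enlarged at right. The Indian fantail hindlimb line is the lowest in the 4 classes below 75, from 10.5% down to 0.505%, and the highest at 90–100, with 0.652%.

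The 10 regions with the highest smallest percentile were broad, from 4859 to 18969 bp wide, and 9 of the 10 lay in one of 8 gaps between neighbouring peaks of the Indian fantail hindlimb list that held at least 5 kb of sequence under all 3 other lists. The strongest was on scaffold 34, from 7275486 to 7294454. Its highest-scoring peaks had scores of 1395 in the racing homer forelimb (percentile 97.6), 1309 in the racing homer hindlimb (97.3) and 1400 in the Indian fantail forelimb (98.0), and 16051 of its 18969 bp lay under all 3 lists. An adjacent region, from 7294527 to 7302507, had scores of 124 (51.4), 458 (87.7) and 73.7 (25.3) in the same order. Across both, the Indian fantail hindlimb list has a gap of 29.6 kb, in which the racing homer forelimb peaks covered 83.5%, the racing homer hindlimb peaks 89.4% and the Indian fantail forelimb peaks 87.5%. Peaks of the missing list stood at both ends of the gap, with scores of 405 (percentile 82.2) and 747 (91.6).

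The longest run of neighbouring members was on scaffold 218, with 4 regions from 668699 to 692518 in a gap of 25.4 kb. The first of them had scores of 364 (percentile 83.6) in the racing homer forelimb, 57.9 (9.79) in its hindlimb and 241 (75.4) in the Indian fantail forelimb. In the second, from 671682 to 677883, they were 360 (83.4), 249 (74.6) and 458 (88.5). The third, from 678153 to 687332, was the strongest, with 1363 (97.6), 1841 (98.5) and 1086 (96.9). The fourth, from 687660 to 692518, had 504 (88.9), 374 (83.9) and 273 (78.7). Between 148 and 327 bp separated these regions. Peaks covered 68.2% of the gap in the racing homer forelimb, 78.1% in its hindlimb and 86.0% in the Indian fantail forelimb, and 57.4% lay under all 3 lists. The Indian fantail hindlimb peaks on either side had scores of 197 and 98.1.

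Scaffold 335 had 2 adjacent members, from 312729 to 320665 and from 320712 to 331203, in a gap of 22.0 kb. The first had scores of 899 (percentile 95.1) in the racing homer forelimb, 1395 (97.6) in its hindlimb and 1329 (97.8) in the Indian fantail forelimb, and the second 638 (91.8), 512 (89.2) and 755 (94.6). On scaffold 100, the members from 4436156 to 4448224 and from 4448355 to 4455797 lay in a gap of 25.0 kb. Their scores were 763 (93.7), 573 (90.7) and 633 (92.8) in the first and 823 (94.4), 1019 (95.9) and 1036 (96.7) in the second, in the same order of lists. In both places the 3 lists gave peaks of like rank, and the Indian fantail hindlimb list resumed on each side, 2753 and 779 bp from the block on scaffold 335 and 1458 and 3893 bp from that on scaffold 100.

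The member of scaffold 693 from 2079946 to 2092408 had the longest stretch under all 3 lists, 9368 bp, followed by those of scaffolds 34 and 218. Its scores were 665 (percentile 92.2) in the racing homer forelimb, 636 (91.9) in its hindlimb and 957 (96.4) in the Indian fantail forelimb. Scaffold 1, with 7 members, had the most. A pair of them from 1728871 to 1736558 and from 1736638 to 1742183 scored 393 (85.0), 527 (89.6) and 849 (95.5) in the first and 447 (87.1), 320 (80.6) and 257 (77.1) in the second. The other five on scaffold 1 were weaker, with smallest percentiles between 3.29 and 23.0. Over that scaffold, 7 of 82 regions with a peak in the other three lists lacked the Indian fantail hindlimb (8.54%), and on scaffold 100 it was 5 of 46 (10.9%). Over all scaffolds it was 2.70%, and over the 9 scaffolds with at least 4 members it ran from 2.11% on scaffold 7 to 10.9% on scaffold 100. Adjacent members in the same gap were counted separately.

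The remaining region of the 10, on scaffold 7 from 10926050 to 10931611, stood alone in a gap of 50981 bp, 13647 bp from the nearest Indian fantail hindlimb peak, with 3735 bp under all 3 lists. It scored 900 (percentile 95.1) in the racing homer forelimb, 958 (95.5) in its hindlimb and 1211 (97.5) in the Indian fantail forelimb.

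Gaps of the Indian fantail hindlimb list with at least 5 kb of sequence under all 3 other lists numbered 8, on scaffolds 34, 218, 190, 100, 335, 1, 693 and 37. In 5 of them, on the first 5 of these scaffolds, at least 50% of the gap lay under all 3 lists, from 53.2% on scaffold 100 to 78.0% on scaffold 34. The racing homer hindlimb list, treated in the same way for regions missing only from it, had 7 such gaps, 2 of them covered to at least 50%, the racing homer forelimb list 3 and 1, and the Indian fantail forelimb list 2 and 0. These counts come from unlike totals of gaps that held regions missing only from the list and had peaks on both sides. The totals were 231 in the Indian fantail hindlimb list, 595 in the racing homer hindlimb, 1021 in its forelimb and 1209 in the Indian fantail forelimb. The 8 gaps held 17 of the 270 members and 105148 bp under all 3 lists, 27.5% of those bases over all members. Median percentiles of the 17 members were 90.9 in the racing homer forelimb, 89.2 in its hindlimb and 88.5 in the Indian fantail forelimb. Without them the other 253 members had medians of 37.8, 27.6 and 33.4. The gaps were chosen after the values were seen, by bases under peaks of these same 3 lists. That choice favours broad regions, so this contrast describes the choice and supports nothing about the members. The gap on scaffold 190, 23.9 kb long, held a single member from 1095390 to 1111269 with 13476 bp under all 3 lists and scores of 671 (92.4), 160 (60.2) and 291 (80.3) in the racing homer forelimb, its hindlimb and the Indian fantail forelimb. The hindlimb score of 160 belonged to a short peak at the end of the member, from 1109222 to 1111269. Most of the shared bases lay under a longer racing homer hindlimb peak with a score of only 61.9.

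The 5 gaps covered to at least 50% were from 22.0 to 29.6 kb long. Peaks in the Indian fantail hindlimb list had a median width of 1644 bp and reached 33.6 kb. The numbers in its peak names run from 1 to 22407 with 0 skipped. No read counts or input coverage were used here, so whether the tissue lacked the mark in these gaps or the list lacks a peak there was not tested. When peaks up to 1 kb apart were joined, 2 of the 10 strongest regions remained, although 226 of the 270 were found again, and the other eight became part of longer regions with an Indian fantail hindlimb peak. Of the 10, 8 had no peak of that list within 1 kb.

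**Figure D5:**
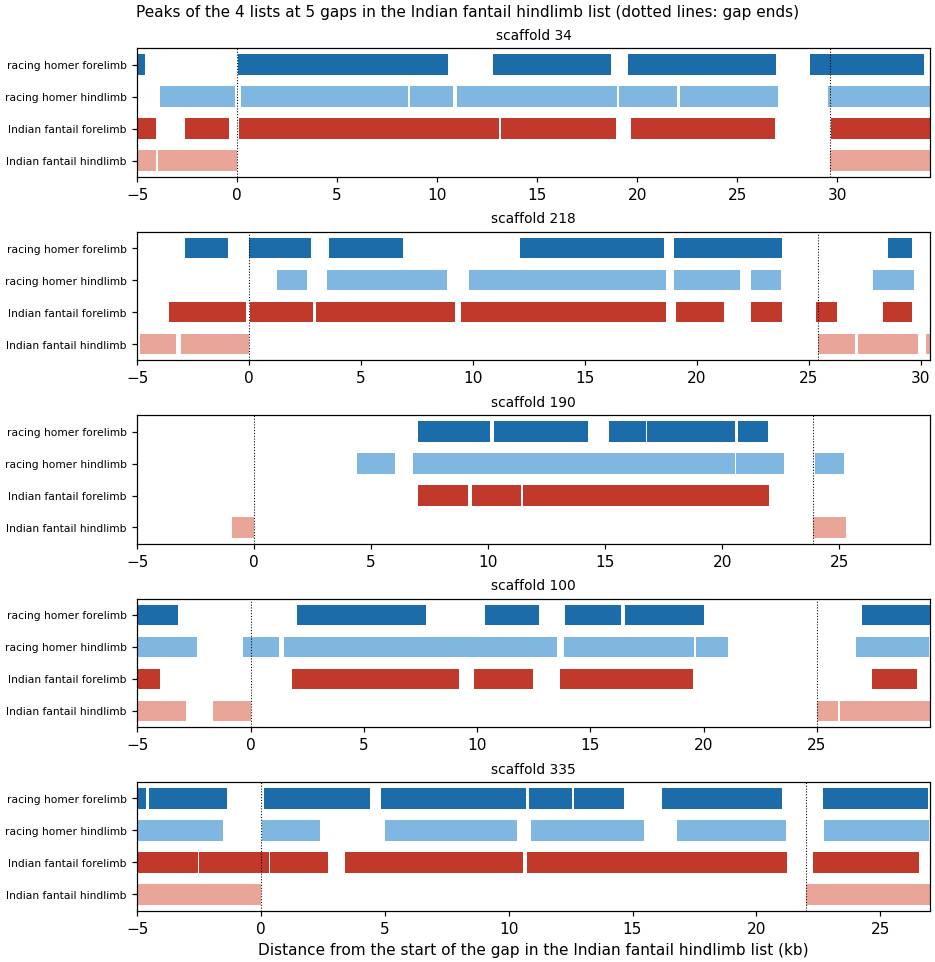
Peaks of the 4 lists (bars, a row per list) at the 5 gaps of the Indian fantail hindlimb list in which at least 50% lay under the other 3 lists, by distance in kb from the start of the gap (x axis, dotted lines at the gap ends). The gaps are 29.6, 25.4, 23.9, 25.0 and 22.0 kb long on scaffolds 34, 218, 190, 100 and 335, and no Indian fantail hindlimb bar lies inside them.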

How the data were processed

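H3K27ac ChIP-seq was performed on HH25 limb buds, with 2 ChIP and 2 input libraries per breed and limb. The authors deposited 1 list of peaks per breed and limb, giving the start and end of each peak and a score whose scale is not given in the sources used here. The submitters' processing notes name CASAVA, Bowtie2 2.2.3, SAMtools, MACS 1.4.2 and MACS2 2.0.10.20130915 without their roles; the genome build and the way in which replicates were combined are not given in the sources used here. Scores were therefore turned into percentiles within a list. Tables of the authors' own comparison of the hindlimbs, which hold regions with a log10 likelihood ratio, were not used here.

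Peaks of the 4 lists were pooled, intervals overlapping by at least 1 bp were joined, and each region was marked by the lists with a peak in it. The highest-scoring peak of a list stood for the list in a region. Shares carry 95% Wilson intervals (counting error alone), and medians carry 95% intervals from binomial order statistics. Since the lists hold no value per replicate and the rule uses the lists themselves, no test was made. Regions were named by a rule: the 10 with the highest smallest percentile over the 3 lists, the 3 with the longest stretch under all 3 lists, the 3 nearest to and the 3 farthest from an Indian fantail hindlimb peak, the 3 regions in all 4 lists with the fewest bases under an Indian fantail hindlimb peak, the longest run and the scaffold with most regions, the 3 highest and the 3 lowest differences between racing homer limbs, and any region in the windows around *Pitx1* and *Tbx5*. The members and lists were chosen with earlier results of these data known. Regions outside this rule, the large gaps and the forelimb-weighted regions were chosen after their values were seen. The alternatives changed how peaks are joined, the score or size of the lists, the common base and the distance to the missing list. The RefSeq gene table describes another assembly, so no gene or sequence was assigned to a region. Python 3.11.15, numpy 2.4.6, scipy 1.17.1 and matplotlib 3.10.9 were used, and 7 of 7 checks of the procedure on 4000 simulated regions recovered the planted answer.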

Additional observations from a re-analysis of the deposited data

How the results depend on the processing

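No paired analysis was possible because each deposited list combines the replicates of a breed and limb, so nothing was tested over replicates and none could be left out. Without read depth, a missing peak cannot be told apart from signal under the calling limit. Of 95 values recomputed under an alternative, 46 stayed within 1.5 times (counts) or within their 95% interval (shares and medians), and 49 moved. The count of regions missing only from the Indian fantail hindlimb was the lowest of the 4 counts under all 9 alternatives of joining, score, size, common base and distance.

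When peaks had to overlap by at least 50% of both, 615 regions had the pattern, a share of 6.35% of the regions with a peak in the other three lists, with median percentiles of 52.9, 53.4 and 47.9 in the racing homer forelimb, its hindlimb and the Indian fantail forelimb, a median width of 2299 bp and 14.96% next to another member, against 8.15% in the report's setting. With peaks at or above the median score of their list, the count was 149, the medians were 72.2, 66.0 and 67.8, the width 2950 bp and the neighbour share 12.1%, and 566, 410 and 795 regions were missing only from the racing homer forelimb, its hindlimb and the Indian fantail forelimb. With scores of at least 100, these were 146 regions (2.39%), 65.2, 56.4 and 62.1, 2619.5 bp, and 699, 437 and 988 regions. Both cuts also removed weaker Indian fantail hindlimb peaks, so a region could count as missing although the full list has a peak in it. The 149 regions overlapped 24 of the 270 and the 146 regions 38, so most of each set was new. When the median score of the list was asked of the 3 lists with a peak and all peaks of the missing list were kept, 26 regions (0.496%) were left, with 86.4, 83.8 and 80.0, 5882 bp and 46.2% next to another, and the other counts were 60, 48 and 101. With lists of equal size, 15357 peaks each, there were 541 regions (5.85%), with a racing homer hindlimb median of 43.8, and 875 missing only from the Indian fantail forelimb. This setting also removed Indian fantail hindlimb peaks. With no Indian fantail hindlimb peak within 1 kb, the share was 2.40% and the neighbour share 5.44%; within 5 kb, 172 regions (1.74%) and 3.49% were left, and the other counts were 819, 412 and 971. The median racing homer hindlimb minus forelimb difference in percentile, -3.12 in the report's setting, was 1.57 with 50% overlap and 0.47 with lists of equal size, and between -4.57 and -0.29 in the other seven settings. The neighbour share was 2.58% with peaks up to 1 kb apart joined and 3.16% without the members of the 8 large gaps, an alternative chosen after the data were seen. The 10 strongest regions were overlapped by a region of the same pattern in every setting of overlap, score, list size and common base, and 2 of them remained with peaks up to 1 kb apart joined, 8 with the 1 kb distance and 3 with the 5 kb distance. Under the score and common base settings this was fixed by their choice. Their lowest score was 273 and all had bases under all 3 lists, so these settings could not remove them.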

Other observations

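The other lists also had gaps with at least 5 kb under peaks of the remaining 3 lists, in some of them only a small part of the gap. In the racing homer hindlimb list, a gap of 20.5 kb on scaffold 38 from 15676160 to 15696661 had 14.1 kb (68.6%) under peaks of the other 3 lists, in a single region with peaks up to percentile 99.1. On scaffold 70, the scaffold of *Tbx5*, the racing homer hindlimb gap from 476547 to 776706 had 13.2 kb (4.39%) under the other 3 lists, in 2 regions with peaks up to percentile 99.8. In the Indian fantail forelimb list, the gap with most bases under the other 3 lists was on scaffold 150 from 2981272 to 3023081, with 14.8 kb (35.3%). In the racing homer forelimb list it was on scaffold 836 from 158631 to 180217, with 12.8 kb (59.3%). The most in any list was 23.1 kb, in the Indian fantail hindlimb gap on scaffold 34. Among the regions with peaks in all 4 lists, 80 had no base under all 4, so that a peak in each list does not always mean a shared element.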
